A study of Mus musculus with 8 samples.

Results

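Genes of cyclic AMP and G protein signalling were examined in the ventral tegmental area (VTA) of juvenile mice. They are the adenylyl cyclases (Adcy), the genes named as cyclic nucleotide phosphodiesterases (Pde), the regulators of G protein signalling (Rgs), the G protein alpha subunits (Gna), the subunits of protein kinase A (Prka) and Ppp1r1b. Members were chosen by symbol, as the genes named with 1 of the 5 family stems and a subtype ending, plus Ppp1r1b. Enzyme activity was not a criterion, so that Pde6d is counted with Pde by its name alone. The symbols Gnas and Rgs5 were left out, so that rankings within a family hold among the members kept. This gave 74 of the 54735 genes listed, of which 10 were Adcy, 22 Pde, 20 Rgs, 15 Gna and 6 Prka genes.

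RNA-sequencing was performed on VTA punches of DBA2/J mice labelled male, with 4 undisturbed controls (CTR) and 4 socially stressed mice (SS), and 1 library per mouse. By the methods, whole litters were assigned to CTR or SS, and at most 2 mice per sex were used from a litter. The litter of each library is not given, so that mice of a group may be littermates, and litter was not in the model. Each SS pup spent 30 min per day, from postnatal day (PD) 14 to 21, with an unfamiliar gonadectomized adult CD1 male, and the comparison of SS with CTR asks how this stress in early life is reflected in VTA transcripts. Tissue was taken at PD 22 by the methods and at PD 21 by the labels, as bilateral punches of 0.5 mm that hold every cell type of the site. In CTR the libraries numbered 1, 2, 3 and 5 had totals of 20036086, 25399538, 23512478 and 39569142 counts, and in SS those numbered 2, 3, 4 and 5 had 41509698, 47319997, 26024301 and 25248618, and values of libraries follow this order below. Genes with at least 1 count numbered from 17446 for CTR-1 to 23172 for CTR-5.

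The labels were checked against sex transcripts and dopamine neuron markers. Xist, which is transcribed from the inactive X chromosome of females, had 14997 counts in CTR-5, 6551 in SS-5 and 0 to 3 in each of the other 6 libraries. Summed counts of Ddx3y, Eif2s3y, Kdm5d and Uty, which lie on the Y chromosome, were 3 for CTR-5 and 0 for SS-5, compared with 2293 to 7892 elsewhere. CTR-5 and SS-5 thus go against the male label, and counts of members, the members at an unadjusted p under 0.05 and the medians given for marker lists also stand below without them. Tyrosine hydroxylase (Th), the dopamine neuron marker, was detected in all 8 libraries, at 472, 161, 169 and 322 CPM across CTR libraries and 15.7, 15.8, 14.1 and 25.5 CPM across SS libraries, where CPM are counts per 1000000 counts of the library after TMM scaling. In bulk tissue, fewer cells of a type and less RNA per cell cannot be told apart.

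Receptors with a bound ligand load GTP onto G protein alpha subunits, of which the Gs and Golf type stimulates adenylyl cyclases and the Gi/o type inhibits them. Cyclic AMP frees the catalytic subunits of protein kinase A (PKA) from their regulatory subunits, phosphodiesterases break it down, and RGS proteins shorten the signal by speeding the hydrolysis of GTP. In the VTA, dopamine neurons are restrained by Drd2 autoreceptors that act through Gi/o, whereas medium spiny neurons of the striatum are known for Golf, Adcy5 and Ppp1r1b.

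Of the 74 members, 63 passed the filter on low counts and were tested with edgeR, with Benjamini-Hochberg adjustment over 16538 genes. At an adjusted p under 0.05 edgeR called 0 of 63 members, against 0.0847% of all genes tested. Limma voom also called 0, and DESeq2 called 1, Rgs14, against 0.419% of all genes. At an unadjusted p under 0.05 edgeR gave 9 of 63 members, or 14.3%, against 6.55% of all genes, whereas voom gave 9 members, against 7.56% of all genes, and DESeq2 gave 11 of 69, against 5.95%. Of the 9, 5 were lower in SS (Rgs14, Ppp1r1b, Rgs6, Rgs7 and Adcy2), against 3.7% of all genes. The other 4 (Adcy3, Adcy6, Pde11a and Pde3b) were higher, against 2.85% of all genes. In edgeR the count was 4 without SS-2, 4 without SS-3 and 3 without SS-4, or 6.35%, 6.35% and 4.76% of members, against 4.47%, 3.76% and 3.53% of all genes in the same fits. It was 9, or 14.3%, without both CTR-5 and SS-5, with 8 lower and 1, Adcy6, higher, against 10.6% of all genes.

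Groups did not overlap for 6 of 63 members, or 9.52%, against 4.67% of all genes. Every CTR library was above every SS library for Rgs14, Rgs6 and Adcy2, which 2.21% of all genes met. Every SS library was above every CTR library for Adcy3, Adcy6 and Pde11a, which 2.47% of all genes met. Fewer libraries separate more easily, and the count was 10 without CTR-1, against 8.77% of all genes, and 13 without both CTR-5 and SS-5, against 20.1%. Without TMM scaling Adcy2 overlapped and Pde3b did not.

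**Figure D1:**
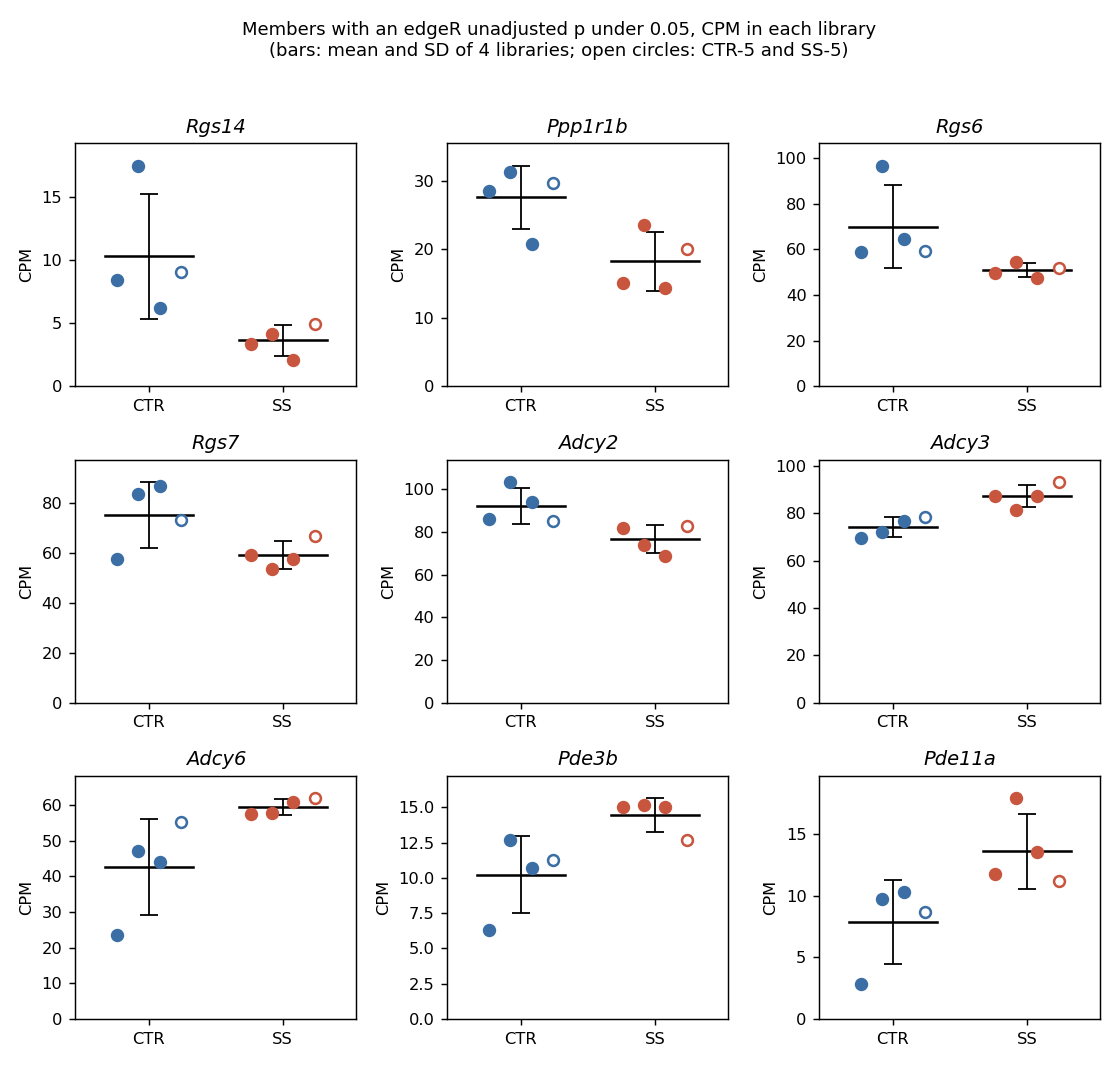
CPM in each library for the 9 members with an unadjusted p under 0.05 in edgeR, with 4 CTR and 4 SS libraries per panel, a line for the mean, a bar for the SD and open circles for CTR-5 and SS-5. The groups are separate for Rgs14, Rgs6, Adcy2, Adcy3, Adcy6 and Pde11a and overlap for Ppp1r1b, Rgs7 and Pde3b.

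By family, the median log2 fold change of SS over CTR was 0.05 for 9 Adcy, 0.11 for 19 Pde, -0.21 for 16 Rgs, -0.02 for 12 Gna and 0.03 for 6 Prka members tested. For all 63 members it was -0.01, with 32 below 0 and 31 above, and for all 16538 genes it was 0.00. The Rgs median stood farthest from 0, with 12 of 16 members below it, and was -0.25 without both CTR-5 and SS-5. Leaving out CTR-1 took the Adcy median to -0.07 and the Pde median to -0.000940. Leaving out CTR-2 took the Gna median to 0.01.

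**Figure D2:**
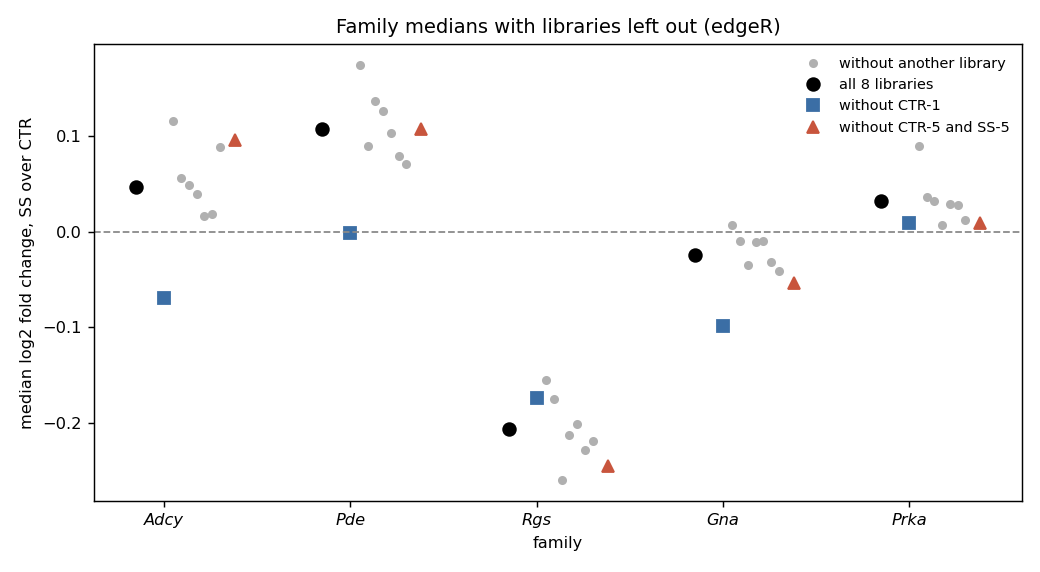
Median log2 fold change of SS over CTR for the tested members of each family in edgeR, with all 8 libraries (black), without CTR-1 (blue squares), without CTR-5 and SS-5 (red triangles) and without each other library (grey). The Rgs points all lie below 0, and the Adcy point without CTR-1 lies at -0.07.

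Promoter windows of RefSeq on GRCm38.p6, each of 300 bases, were found for 55 of the 74 members, with 98 transcription starts. The cyclic AMP response element TGACGTCA, to which CREB binds, was searched on both strands and was at 2 of 98 starts, against 1.79% of all 32851 starts. Both were starts of Prkar1a with overlapping windows, so that the site is the same. Its shorter core TGACG was at 21 of 98 starts, against 20.8% of all starts. Below stand a window of Prkar1a (chr11:109650699-109650998, plus strand), with the element in capitals, and those of members whose groups did not overlap, namely Rgs6 (chr12:82617249-82617548, plus strand), Adcy2 (chr13:68999492-68999791, minus strand), Adcy3 (chr12:4133147-4133446, plus strand) and Pde11a (chr2:76338889-76339188, minus strand). No window was found for Rgs14 and Adcy6.
Prkar1a: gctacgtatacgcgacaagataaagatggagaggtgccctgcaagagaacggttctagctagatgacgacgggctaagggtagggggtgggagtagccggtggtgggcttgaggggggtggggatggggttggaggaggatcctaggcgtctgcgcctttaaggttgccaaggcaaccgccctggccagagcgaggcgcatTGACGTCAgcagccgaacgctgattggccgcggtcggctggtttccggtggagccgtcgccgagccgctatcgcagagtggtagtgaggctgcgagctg
Rgs6: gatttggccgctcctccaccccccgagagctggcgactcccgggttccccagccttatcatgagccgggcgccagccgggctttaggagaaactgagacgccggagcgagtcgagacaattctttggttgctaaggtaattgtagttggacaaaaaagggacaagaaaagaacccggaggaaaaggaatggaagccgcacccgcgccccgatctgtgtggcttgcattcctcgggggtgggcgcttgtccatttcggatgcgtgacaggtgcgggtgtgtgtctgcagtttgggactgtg
Adcy2: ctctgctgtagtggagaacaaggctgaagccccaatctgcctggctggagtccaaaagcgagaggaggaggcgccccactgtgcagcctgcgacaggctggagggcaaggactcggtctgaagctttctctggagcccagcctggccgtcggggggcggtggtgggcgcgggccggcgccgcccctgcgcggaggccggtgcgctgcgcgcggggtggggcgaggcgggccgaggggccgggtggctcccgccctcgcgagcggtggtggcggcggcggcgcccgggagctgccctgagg
Adcy3: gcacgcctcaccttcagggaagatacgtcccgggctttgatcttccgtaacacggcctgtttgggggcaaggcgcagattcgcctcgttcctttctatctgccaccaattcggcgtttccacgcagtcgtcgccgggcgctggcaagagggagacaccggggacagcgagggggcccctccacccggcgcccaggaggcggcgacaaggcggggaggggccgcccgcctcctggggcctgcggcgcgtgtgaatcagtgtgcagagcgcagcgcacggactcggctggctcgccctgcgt
Pde11a: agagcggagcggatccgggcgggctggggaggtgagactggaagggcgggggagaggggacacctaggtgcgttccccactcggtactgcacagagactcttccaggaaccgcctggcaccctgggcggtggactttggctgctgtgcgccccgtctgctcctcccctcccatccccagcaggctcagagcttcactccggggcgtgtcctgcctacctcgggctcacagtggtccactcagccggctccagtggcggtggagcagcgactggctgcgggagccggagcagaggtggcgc
Neither motif was in these windows of Rgs6, Adcy2, Adcy3 and Pde11a, which describes the letters and not their use. The Rgs6 window lies inside the annotated gene, which begins at chr12:82588292, and does not cover that start.

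The alpha subunits carry the signal from receptor to effector, and per kb of exon Gnai2, Gna12 and Gnao1 had the highest CPM of the Gna members kept. Gnai2, an inhibitory subunit, was at 68.7 and 61.6 CPM per kb for CTR and SS, Gna12, of another class, at 67.3 and 66.3, and Gnao1, the main Go subunit of neurons, at 65.7 and 64.0. Gnao1 read 669.7, 742, 783 and 712 CPM across CTR libraries and 671, 708, 713 and 736 CPM across SS libraries. Its groups overlapped, and the log2 fold change was -0.04 (95% interval -0.20 to 0.12). Gnai1 and Gnaz, which also inhibit adenylyl cyclase, had log2 fold changes of 0.03 (95% interval -0.25 to 0.30) and -0.01 (95% interval -0.23 to 0.20). Gnal, the stimulatory Golf subunit, averaged 203 ± 26.1 CPM for CTR and 203 ± 4.08 CPM for SS (SD, n = 4), with a fitted log2 fold change of 0.00 (95% interval -0.22 to 0.22). For 10 of 12 tested Gna members the 95% interval lay within 0.5 of 0.

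Gnai2 read 274, 281, 263 and 221 CPM across CTR libraries and 229, 223, 237 and 242 CPM across SS libraries. CTR-5 was the lowest of all, and the other CTR libraries were above every SS library. Its log2 fold change was -0.16 (95% interval -0.36 to 0.05) and was -0.23 without CTR-5. There DESeq2 gave a Benjamini-Hochberg adjusted p of 0.0488, within 0.0488 to 0.999 over the alternatives run. In that DESeq2 fit 11.6% of all genes were at an unadjusted p under 0.05. Without both CTR-5 and SS-5 the log2 fold change of Gnai2 was -0.25 with an unadjusted p of 0.0166 in edgeR. Gna13, of the same class as Gna12, read 61.3, 61.9, 69.7 and 74.3 CPM across CTR libraries and 76.3, 76.7, 72.1 and 74.6 CPM across SS libraries. SS-4 lay within the CTR range and the other SS libraries above it, and the log2 fold change was 0.17 (95% interval -0.06 to 0.39).

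Gna14 and Gna15, which activate phospholipase C, had 0 to 117 and 17 to 100 counts per library. Gna14 read 6.05, 0, 1.08 and 1.17 CPM across CTR libraries and 0.693, 0.394, 0 and 0.308 CPM across SS libraries, and a count of 0 allows up to 0.121 CPM in CTR-2 and 0.113 CPM in SS-4. Gna15 read 5.17, 1.94, 0.907 and 0.713 CPM across CTR libraries and 0.406, 0.830, 1.05 and 0.732 CPM across SS libraries. Both were highest in CTR-1, and their log2 fold changes went from -2.54 and -1.52 to -1.09 and -0.65 without it. Gnat1 and Gnat2, the transducins of photoreceptors, had 44 counts each over 8 libraries and did not pass the filter on low counts, and Gnat3 had 0. Summed photoreceptor markers were at 0.0517, 2.67, 1.86 and 1.45 CPM across CTR libraries and 1.03, 1.805, 2.94 and 2.39 CPM across SS libraries, with Nrl the most abundant and Rcvrn, Crx and Sag under 1 CPM on average.

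Adenylyl cyclases make cyclic AMP and differ in what regulates them. Adcy5, which calcium inhibits, had the highest CPM per kb of the family, 26.9 and 27.8 for CTR and SS. It read 193, 205, 198 and 175 CPM across CTR libraries and 204, 183, 189 and 221 CPM across SS libraries. The groups overlapped, and the log2 fold change was 0.05 (95% interval -0.16 to 0.25).

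Adcy6 (chr15:98589973-98610076 on GRCm38), the closest relative of Adcy5, read 23.7, 47.2, 44.1 and 55.4 CPM across CTR libraries and 57.4, 57.7, 60.9 and 61.9 CPM across SS libraries. All SS libraries were above all CTR libraries, and CTR-1 was far below the rest. SS over CTR gave a log2 fold change of 0.48 (95% interval 0.03 to 0.93), or 1.39-fold, with an unadjusted p of 0.0398 and a Benjamini-Hochberg adjusted p of 0.755 in edgeR. It was 0.28 without CTR-1, with an unadjusted p of 0.0261, and 0.61 without both CTR-5 and SS-5.

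Adcy3 (chr12:4133103-4213525), which is known from the primary cilia of neurons, read 69.5, 71.9, 76.6 and 78.6 CPM across CTR libraries and 87.3, 81.5, 87.2 and 93.3 CPM across SS libraries. Every SS library was above every CTR library, with CTR-5 and SS-3 nearest to each other. The log2 fold change was 0.24 (95% interval 0.02 to 0.45), with an unadjusted p of 0.0336 in edgeR, and was 0.23 with an unadjusted p of 0.0652 without both CTR-5 and SS-5. Of its 6246 exon bases, 1380 are annotated on the other strand for Cenpo, which had 1163 counts over 8 libraries against 20301 for Adcy3. Adcy2 (chr13:68620043-68999541), which beta-gamma dimers stimulate, read 86.3, 104, 94.1 and 85.1 CPM across CTR libraries and 81.7, 74.1, 69.0 and 83.0 CPM across SS libraries. SS-5 lay just under CTR-5, and the groups did not overlap. Its log2 fold change was -0.26 (95% interval -0.50 to -0.02), with an unadjusted p of 0.0338 in edgeR, and was -0.34 without both CTR-5 and SS-5.

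Adcy1, which calcium stimulates, read 53.9, 105, 91.4 and 168 CPM across CTR libraries and 75.9, 80.6, 72.3 and 78.3 CPM across SS libraries. CTR-1 was below all SS libraries and the other CTR libraries were above them, with CTR-5 highest. The log2 fold change of Adcy1 was -0.45 (95% interval -1.003 to 0.11) and went to -0.12 without CTR-5. Without CTR-1 it was -0.66 and DESeq2 gave a Benjamini-Hochberg adjusted p of 0.0202, within 0.0202 to 0.999 over the alternatives run. In that DESeq2 fit 6.38% of all genes were at an unadjusted p under 0.05. Adcy10, the soluble cyclase, had 34 counts, all in SS-3, and did not pass the filter on low counts.

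**Figure D3:**
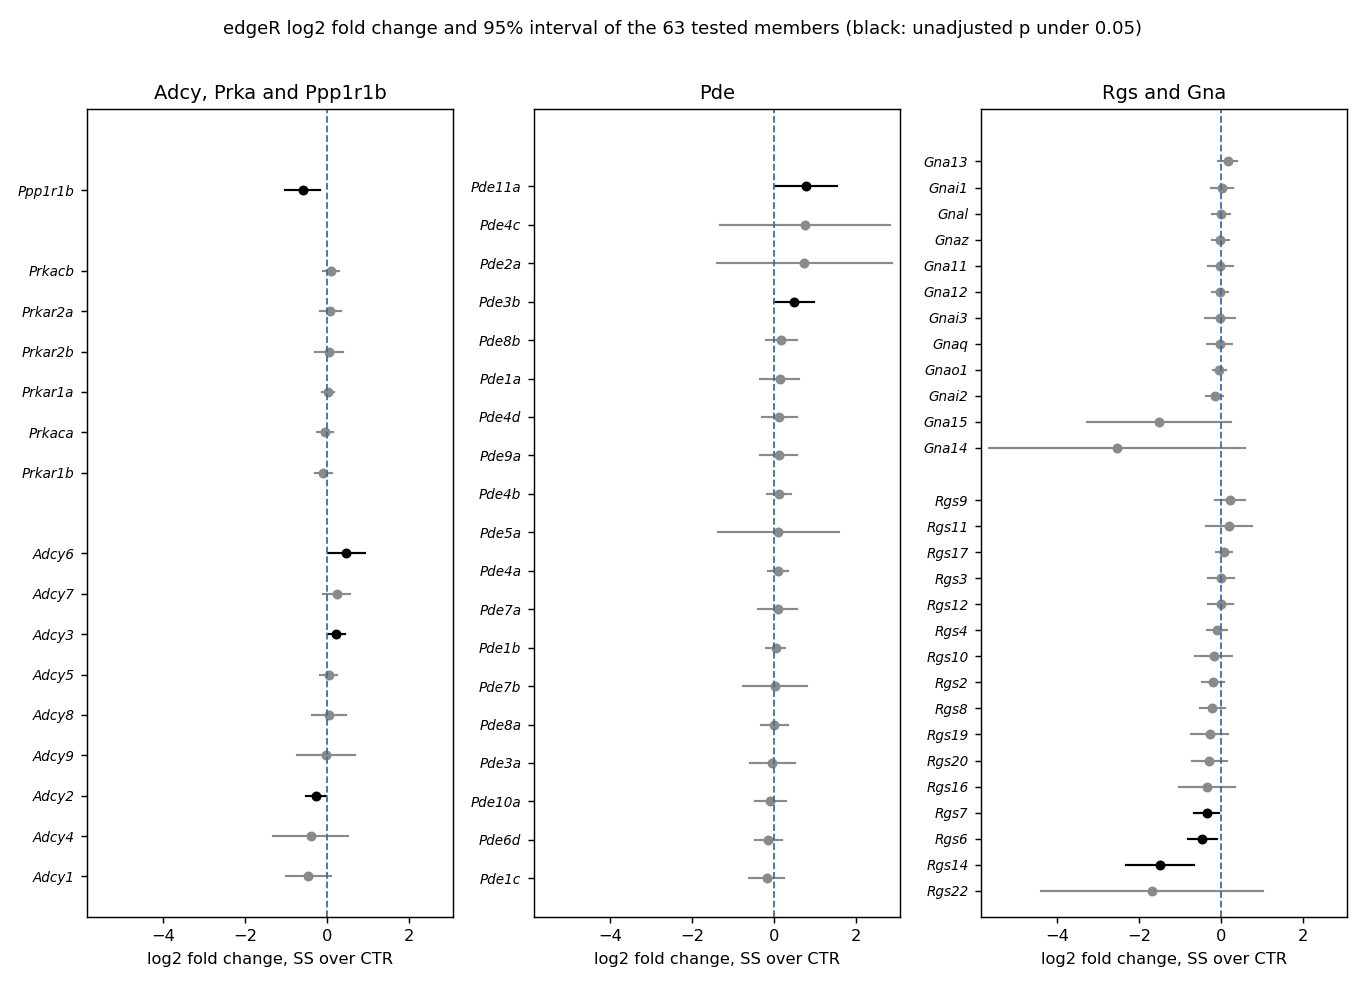
Log2 fold change of SS over CTR with its 95% interval in edgeR for the 63 tested members by family, with members at an unadjusted p under 0.05 in black and the rest in grey. The intervals of the 6 Prka members lie within 0.5 of 0, and wide intervals belong to members with few counts such as Gna14 and Rgs22.

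PKA is the main effector of cyclic AMP, and Prkar1b, a regulatory subunit of neurons, had the highest CPM per kb of the Prka family, 203 and 191 for CTR and SS. Prkar1a, the regulatory subunit with the response element above, read 753, 841, 808 and 810.4 CPM across CTR libraries and 827, 828, 818 and 783 CPM across SS libraries. The groups overlapped, and the log2 fold change was 0.02 (95% interval -0.13 to 0.17). Prkaca and Prkacb, the catalytic subunits, had log2 fold changes of -0.04 (95% interval -0.23 to 0.14) and 0.11 (95% interval -0.09 to 0.31). Prkar1b, Prkar2a and Prkar2b, the other regulatory subunits, had log2 fold changes of -0.09, 0.08 and 0.04. For all 6 Prka members the 95% interval lay within 0.5 of 0, compared with 30 of 63 members.

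Phosphodiesterases act on cyclic AMP, on cyclic GMP or on both. All 8 enzymes specific for cyclic AMP (Pde4a to Pde4d, Pde7a, Pde7b, Pde8a and Pde8b) had a log2 fold change above 0 in edgeR with all libraries, with a median of 0.11, and edgeR, voom and DESeq2 called 0 of them, with 0 at an unadjusted p under 0.05 in edgeR. Pde4a read 143, 121, 156 and 124 CPM across CTR libraries and 139, 135, 153 and 155 CPM across SS libraries. These overlapped, and the log2 fold change was 0.10 (95% interval -0.13 to 0.33). Pde8b had a log2 fold change of 0.18, which was 0.03 without CTR-1. Pde1b, which calmodulin activates and which cuts both nucleotides, had the highest CPM per kb of the family, 24.3 and 25.0 for CTR and SS. Pde10a, an enzyme of medium spiny neurons, read 45.0, 44.8, 45.5 and 75.1 CPM across CTR libraries and 52.4, 49.2, 44.0 and 52.6 CPM across SS libraries. CTR-5 stood above all other libraries, and the log2 fold change was -0.09 with it and 0.14 without it.

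Pde11a (chr2:75989141-76338774), which also cuts both nucleotides, read 2.84, 9.74, 10.3 and 8.66 CPM across CTR libraries and 11.8, 17.9, 13.6 and 11.2 CPM across SS libraries. The groups did not overlap, with CTR-1 lowest and SS-3 highest. SS over CTR gave a log2 fold change of 0.79 (95% interval 0.04 to 1.54), or 1.73-fold, with an unadjusted p of 0.0416 and a Benjamini-Hochberg adjusted p of 0.755 in edgeR. It was 0.52 without CTR-1 and 0.92 without both CTR-5 and SS-5, with an unadjusted p of 0.0659. Pde3b, which cyclic GMP inhibits, read 6.30, 12.7, 10.7 and 11.3 CPM across CTR libraries and 14.99, 15.1, 15.03 and 12.7 CPM across SS libraries. CTR-2 and SS-5 met, and CTR-1 was lowest. The log2 fold change was 0.50 (95% interval 0.00 to 0.99), with an unadjusted p of 0.0489 in edgeR, and 0.33 without CTR-1, with an unadjusted p of 0.0786. Without both CTR-5 and SS-5 it was 0.60 and the unadjusted p, 0.0616, was above 0.05.

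Pde2a and Pde4c had no counts in CTR-1, where a count of 0 allows up to 0.155 CPM. Of the 6149 exon bases of Pde2a, 3955 are also annotated for Gm45837 on the same strand, so that its level is uncertain. Pde6a, Pde6b and Pde6c, enzymes of photoreceptors, had 22, 2 and 7 counts over 8 libraries and did not pass the filter on low counts.

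RGS proteins are grouped by structure, and 3 of 16 tested were at an unadjusted p under 0.05 in edgeR, or 18.8%. These 3 were all lower in SS, whereas 6.55% of all genes were under 0.05 in either direction and 3.7% lower. Rgs14 (chr13:55369732-55384687 on GRCm38), which binds Gi/o subunits and is known from pyramidal neurons of the hippocampus, read 8.42, 17.5, 6.18 and 9.07 CPM across CTR libraries and 3.35, 4.17, 2.07 and 4.97 CPM across SS libraries. Every CTR library was above every SS library, and CTR-2 was the highest. The mean was 10.3 ± 4.96 CPM for CTR and 3.64 ± 1.24 CPM for SS (SD, n = 4). The log2 fold change of Rgs14 was -1.50 (95% interval -2.33 to -0.66), or 0.354-fold, with a Benjamini-Hochberg adjusted p of 0.480 in edgeR and 0.0451 in DESeq2, within 0.0149 to 0.999 over the alternatives run.

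DESeq2 called Rgs14 in 4 of 8 fits with a library left out, where it called 41 to 684 of all genes. It did not call Rgs14 without CTR-2 (Benjamini-Hochberg adjusted p 0.269), SS-2 (0.217), SS-3 (0.157) or SS-4 (0.297). Without both CTR-5 and SS-5 DESeq2 gave Rgs14 no adjusted p, and its log2 fold change in edgeR was -1.74 with an unadjusted p of 0.00516. The study chose Rgs14 among its genes on the same libraries with the same tool, so that the call is not independent evidence.

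Rgs14 is also a gene of hippocampal neurons, and summed markers of excitatory neurons of cortex and hippocampus were at 31.3, 283, 84.5 and 536 CPM across CTR libraries and 61.6, 58.4, 36.8 and 107 CPM across SS libraries. edgeR and DESeq2 called 0 of 6 markers at an adjusted p under 0.05, and 2 of 6, Slc17a7 and Neurod6, were lower at an unadjusted p under 0.05 in edgeR. Slc17a7 was the most abundant per kb. Log2 fold changes were below 0 for 5 of 6, and their median was -0.93. Without both CTR-5 and SS-5 it was -0.48 with 4 of 6 below 0, and edgeR gave 0 of 6 at an unadjusted p under 0.05. The part of such cells in the Rgs14 levels was not tested.

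Rgs6 and Rgs7 belong to the R7 group, whose proteins work as dimers with Gnb5 and act on Gi/o subunits. Rgs6 (chr12:82588292-83162056) read 58.9, 96.8, 64.8 and 59.2 CPM across CTR libraries and 49.9, 54.5, 47.5 and 52.0 CPM across SS libraries. All CTR libraries were above all SS libraries, and CTR-2 was far above the others. Its log2 fold change was -0.46 (95% interval -0.81 to -0.10), with an unadjusted p of 0.0154 and a Benjamini-Hochberg adjusted p of 0.746 in edgeR, and was -0.26 without CTR-2 and -0.54 without both CTR-5 and SS-5. Rgs7 read 57.5, 83.6, 86.7 and 73.1 CPM across CTR libraries and 59.1, 53.3, 57.4 and 66.5 CPM across SS libraries. CTR-1 lay among the SS libraries, and the other CTR libraries were above them. SS over CTR gave a log2 fold change of -0.35 (95% interval -0.66 to -0.04), with an unadjusted p of 0.0291 in edgeR. Without CTR-1 it was -0.46 and DESeq2 gave a Benjamini-Hochberg adjusted p of 0.0248, within 0.0248 to 0.999 over the alternatives run. In that DESeq2 fit 6.38% of all genes were at an unadjusted p under 0.05. Without both CTR-5 and SS-5 the log2 fold change of Rgs7 was -0.43 with an unadjusted p of 0.0320 in edgeR. Rgs9 and Rgs11, the other R7 members, had log2 fold changes of 0.22 and 0.19.

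Partners of the R7 proteins were read beside them. Gnb5 averaged 103 ± 12.8 CPM for CTR and 91.3 ± 1.67 CPM for SS (SD, n = 4), with a log2 fold change of -0.18. Rgs7bp, which anchors R7 dimers to the membrane, read 109, 169, 149.7 and 212 CPM across CTR libraries and 139, 134, 129.5 and 124 CPM across SS libraries, which overlapped. Gpr158, a receptor that recruits Rgs7 and was singled out after its values were seen, read 131, 139, 151 and 192 CPM across CTR libraries and 123, 124, 124 and 110.2 CPM across SS libraries. Its groups did not overlap, and the log2 fold change was -0.35, with a Benjamini-Hochberg adjusted p of 0.746 in edgeR.

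The R4 group holds small RGS proteins that act on Gi/o and Gq. Rgs4 had the highest CPM per kb of the family, 48.2 and 44.8 for CTR and SS, and a log2 fold change of -0.10 (95% interval -0.35 to 0.14). Rgs2, which acts on Gq, read 56.6, 57.2, 60.4 and 52.2 CPM across CTR libraries and 51.9, 49.5, 54.6 and 41.1 CPM across SS libraries. SS-4 lay within the CTR range and the other SS libraries below it, and the log2 fold change was -0.20 (95% interval -0.46 to 0.07). Rgs8, which DESeq2 called without CTR-1 and which was singled out after its values were seen, read 104, 162, 166 and 152 CPM across CTR libraries and 124, 124, 139 and 116 CPM across SS libraries. CTR-1 was the lowest of all, and the other CTR libraries were above every SS library. Rgs1, Rgs13, Rgs18 and Rgs21 had 43, 8, 0 and 0 counts over 8 libraries and did not pass the filter on low counts.

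Ppp1r1b encodes a phosphoprotein that inhibits protein phosphatase 1 once PKA has phosphorylated it. The gene (chr11:98348404-98357796 on GRCm38) read 28.6, 31.3, 20.8 and 29.7 CPM across CTR libraries and 15.1, 23.6, 14.3 and 19.99 CPM across SS libraries. CTR-3 was below SS-3, and the other CTR libraries were above every SS library. The mean was 27.6 ± 4.67 CPM for CTR and 18.3 ± 4.35 CPM for SS (SD, n = 4). The log2 fold change was -0.59 (95% interval -1.03 to -0.16), or 0.662-fold, with an unadjusted p of 0.0120 and a Benjamini-Hochberg adjusted p of 0.741 in edgeR, and was -0.60 without both CTR-5 and SS-5. Rgs14, Rgs6 and Ppp1r1b were at an unadjusted p under 0.05 in 8 of 8 edgeR fits with a library left out, Adcy2, Adcy3 and Pde11a in 4, Adcy6 and Rgs7 in 3, and Pde3b in 1. These members were picked at that p in the full fit, and the left-out fits reuse the same libraries. The share of all genes is not given for these counts, so that they are not independent evidence.

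Other signalling genes of medium spiny neurons were compared with Ppp1r1b. The log2 fold change was 0.05 for Adcy5, 0.04 for Pde1b, 0.00 for Gnal, -0.09 for Pde10a and 0.22 for Rgs9. Markers of these neurons outside the signalling families summed to 238, 344, 189 and 182 CPM across CTR libraries and 177, 172, 163 and 218 CPM across SS libraries, which overlapped. edgeR and DESeq2 called 0 of 9 markers at an adjusted p under 0.05, and 1 of 9 was lower at an unadjusted p under 0.05 in edgeR. Of the 9 log2 fold changes 8 were below 0, their median was -0.45, and sums had an SS over CTR ratio of 0.767. Without both CTR-5 and SS-5, 4 of 9 were lower at an unadjusted p under 0.05 in edgeR, against 10.6% of all genes in either direction, the median was -0.58 and every CTR sum was above every SS sum. Penk was the most abundant per kb, and no marker of this list averaged under 1 CPM. The part of such cells in the level of Ppp1r1b was not tested.

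**Figure D4:**
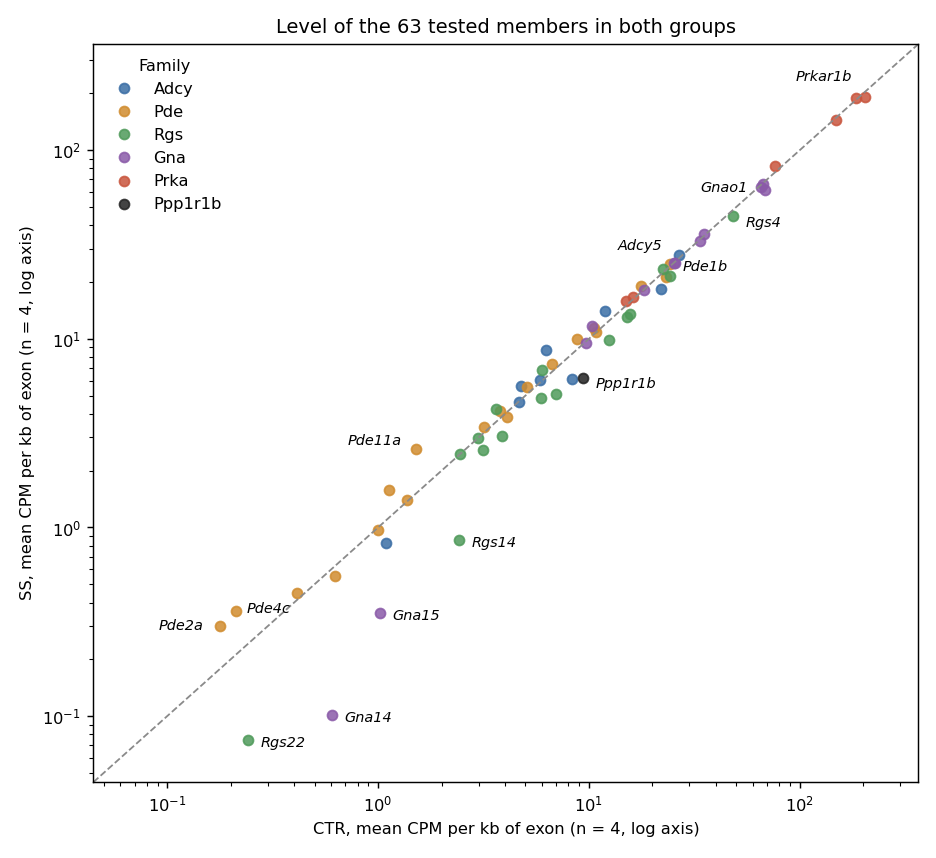
Mean level of the 63 tested members in CTR and SS, as CPM per kb of exon on log axes, colored by family, with equal levels on the dashed line. Prkar1b lies at the top near the line, and Rgs14 lies below it at 2.43 and 0.859 CPM per kb for CTR and SS.

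A further 6 lists held other genes of the pathway, and edgeR and DESeq2 called 0 genes of each at an adjusted p under 0.05. At an unadjusted p under 0.05, which 6.55% of all genes met, edgeR gave 0 of 15 beta and gamma subunits tested, 0 of 14 inhibitors and anchors of PKA and 0 of 11 effectors of cyclic AMP with CREB. It gave 1 of 7 receptor kinases and arrestins (Arrb2, higher), 1 of 13 genes of the phosphatase axis of Ppp1r1b (Ensa, lower) and 2 of 8 helpers of G proteins (Gpr158, lower, and Gpr179, higher), which were singled out after their values were seen. The median log2 fold change was -0.09 for beta and gamma subunits, -0.05 for kinases and arrestins, 0.15 for PKA inhibitors and anchors, 0.00 for effectors, -0.14 for phosphatase genes and -0.08 for helpers. Arrb2, which uncouples receptors from G proteins, read 60.5, 42.5, 62.3 and 54.8 CPM across CTR libraries and 66.3, 70.6, 70.3 and 70.6 CPM across SS libraries, without overlap. The most abundant genes per kb were Gng3, Grk2, Pkia, Rapgef4, Ppp3r1 and Rgs7bp, with log2 fold changes of -0.28, -0.08, 0.00, 0.18, -0.17 and -0.28. Of the 13 phosphatase genes 12 were below 0, and their sums of 2171, 2412, 2149 and 2798 CPM across CTR libraries and 2299, 2209, 2031 and 2009.6 CPM across SS libraries overlapped.

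Dopamine neuron markers summed to 2558, 1554, 1228 and 2363 CPM across CTR libraries and 471, 420.3, 441 and 558 CPM across SS libraries. At an adjusted p under 0.05, 6 of 12 fell in edgeR and 9 in DESeq2, which is the tool by which the study chose its genes on the same libraries. Log2 fold changes were below 0 for 11 of 12 and above 0 for 1, Nr4a2, at 0.16. Lmx1b was at -0.13, and the groups overlapped for both Nr4a2 and Lmx1b. Slc6a3, the dopamine transporter, was the most abundant per kb, at 448 ± 186 CPM for CTR and 6.19 ± 4.13 CPM for SS (SD, n = 4), and no marker of this list averaged under 1 CPM over all libraries. Drd2, the autoreceptor upstream of Gi/o, read 103, 68.6, 54.2 and 84.4 CPM across CTR libraries and 44.7, 40.3, 27.3 and 31.5 CPM across SS libraries, with a log2 fold change of -1.11 and a Benjamini-Hochberg adjusted p of 0.121 in edgeR and 0.000286 in DESeq2. Every CTR library was above every SS library for it. The median log2 fold change was -2.02 for these markers, or -1.99 without both CTR-5 and SS-5, and -0.01 for the members. The part of dopamine neurons in the lower levels of Rgs14, Rgs6, Rgs7, Adcy2 and Ppp1r1b was not tested.

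Markers of hypothalamus and mammillary region summed to 108, 152, 113 and 77.2 CPM across CTR libraries and 157, 148, 177 and 185 CPM across SS libraries. edgeR and DESeq2 called 0 of 9, and 2 of 9, Pmch and Otp, were higher at an unadjusted p under 0.05 in edgeR, with Pmch the most abundant per kb and no marker of this list under 1 CPM over all libraries. All 9 log2 fold changes were above 0, their median was 0.55, and sums had an SS over CTR ratio of 1.48. Without both CTR-5 and SS-5 the median was 0.75 with 6 of 9 above 0. The part of such cells in the higher levels of Adcy3, Adcy6, Pde11a and Pde3b was not tested. Choroid plexus and ependyma markers, with Ttr the most abundant and Folr1 and Kcnj13 under 1 CPM, summed to 13.6, 13.1, 31.5 and 245 CPM across CTR libraries and 20.99, 19.4, 17.7 and 17.3 CPM across SS libraries. Sums overlapped between groups for GABA neurons, thalamus, microglia, astrocytes, oligodendrocytes, endothelial and mural cells, with SS over CTR ratios of 1.08, 0.984, 0.895, 1.02, 0.937, 1.06 and 1.16. In the same order the median log2 fold change was 0.09, -0.58, -0.17, 0.05, -0.09, 0.21 and 0.27, or 0.24, -0.32, -0.33, 0.15, -0.18, 0.31 and 0.37 without both CTR-5 and SS-5, where thalamus sums were higher and microglia and oligodendrocyte sums lower in SS without overlap. Of 5 thalamus markers tested, Plekhg1 was higher and Prkcd lower at an unadjusted p under 0.05 in edgeR, and 4 were below 0. The most abundant genes per kb were Slc32a1 for GABA neurons, Plekhg1 for thalamus, Slc1a3 for astrocytes, Cldn5 for endothelial cells and Vtn for mural cells.

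**Figure D5:**
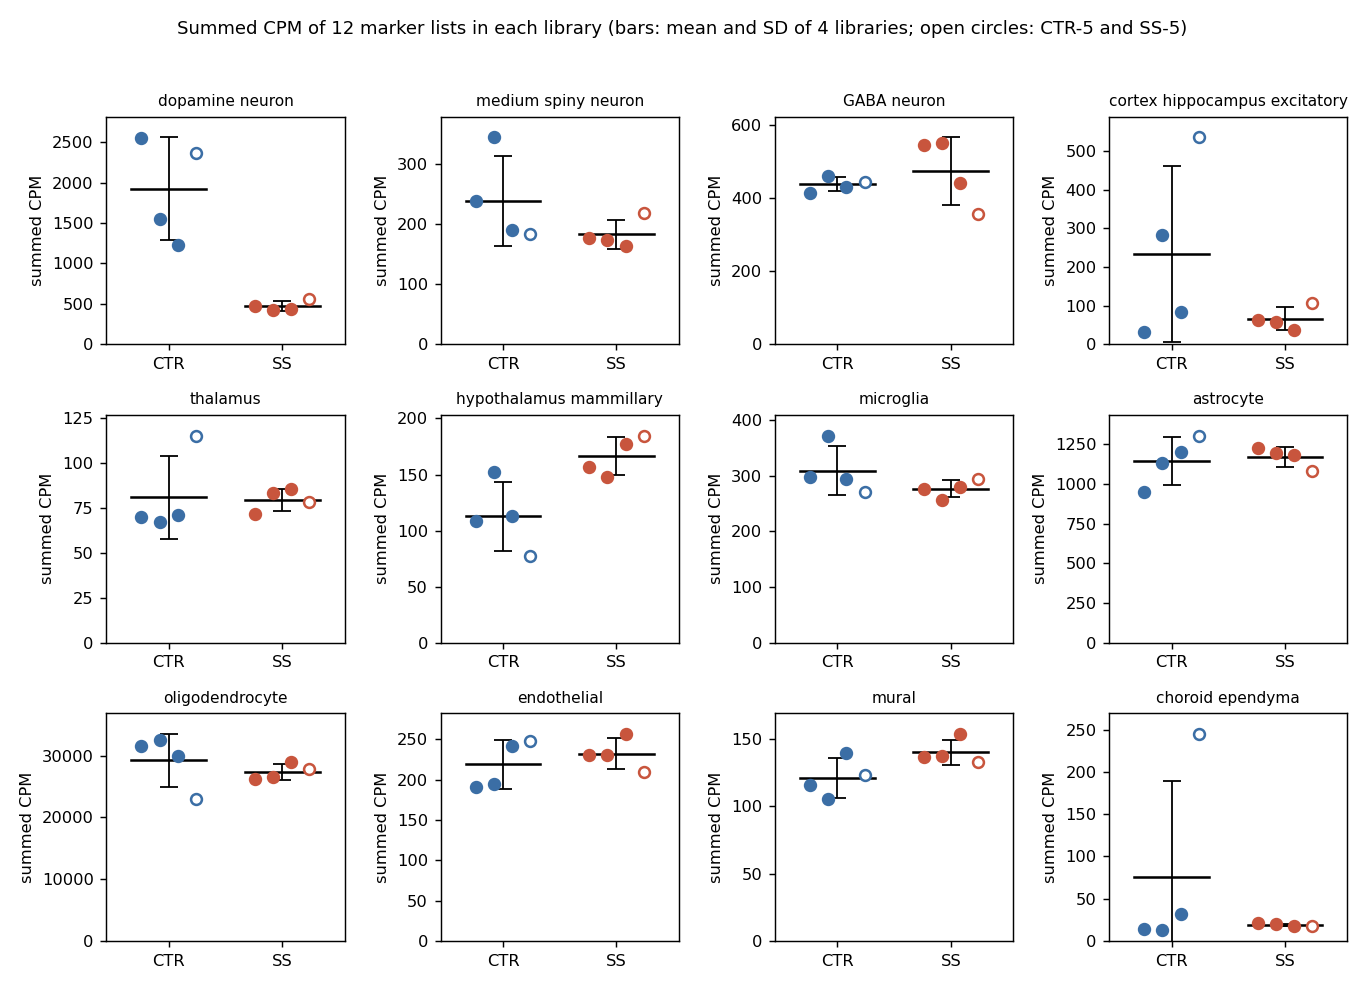
Summed CPM of 12 lists of marker genes in each library, with 4 CTR and 4 SS libraries per panel, a line for the mean, a bar for the SD, which ends at the axis where it would pass 0, and open circles for CTR-5 and SS-5. Dopamine neuron sums are 1228 to 2558 CPM in CTR and 420.3 to 558 CPM in SS.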

How the data were processed

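RNA of VTA punches from 8 mice was read in single-end runs of 75 bp. Per the submitters' notes, the authors used cutadapt and STAR with mm10, and deposited whole counts of reads per gene from HTSeq, without normalization and without versions of these tools. Genes were kept by filterByExpr of edgeR 4.0.16 (minimum count 10, minimum total 15; 16538 genes), scaled by TMM and tested by default glmQLFit and glmQLFTest, with group alone in the model and adjustment by Benjamini-Hochberg, in R 4.3.3. The biological coefficient of variation was 0.384. Alternatives were DESeq2 1.42.0, the study's test, limma 3.58.1 (voom), other filters and scalings, and leaving out libraries. The planned permutation test over 70 assignments of log2 CPM (prior count 2) gives its smallest p wherever groups do not overlap, and is not used. Floors are 3 counts per library, divided by its total after TMM scaling, and intervals and floors reflect only counting error or the spread that the fit models. Exon lengths and positions came from GENCODE on GRCm38, the assembly of mm10. Whether counting was strand-specific is not stated in the sources used here. Members and lists were chosen with earlier results of these data known. Named were members called by edgeR or DESeq2, the 4 with the smallest p and the 1 with the highest CPM per kb of each family, members fixed by role, and each list's most abundant gene, and other genes after their values were seen. The fits were tested on simulated data, and no result of that test is given here.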

Additional observations from a re-analysis of the deposited data

Results flagged for a closer look

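In 9 groups of 4 libraries, where chance gives about 5.1, the highest or lowest library lay far from the others, by its gap to the nearest divided by the whole range. Sex transcripts gave 4 of these in 10 groups tested, which repeat that CTR-5 and SS-5 go against the male label, and the other 92 groups tested gave 5, where chance gives about 4.6. CTR-5 was that library in 5 groups, SS-5 in 3 and CTR-2 in 1. Among the members these were Pde10a in CTR (0.9747, CTR-5 highest), Pde3b in SS (0.946, SS-5 lowest) and Rgs6 in CTR (0.846, CTR-2 highest). Summed markers of thalamus (0.925) and of choroid plexus and ependyma (0.921) were highest in CTR-5. Among sex transcripts, Xist was highest in CTR-5 (0.9997) and in SS-5 (1), Eif2s3y was lowest in CTR-5 (0.845) and Uty was lowest in SS-5 (0.841). The cause was not tested.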

How the results depend on the processing

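edgeR called 14 of all genes, and 27 with its bias-adjusted estimate, 22 without a filter, 22 with a mean count of at least 50, 7 at an adjusted p under 0.01, 9 without CTR-5 and SS-5 and 6 to 19 with each library left out. DESeq2 called 81, 399 without CTR-5 and SS-5 and 41 to 684 with each library left out. Members called were 0 by edgeR with each library left out, 1 by DESeq2 and 0 to 4 by DESeq2 with each library left out. The share of all genes called in each of these DESeq2 fits is not given, so that calls in single fits are no result about the members. Members at an unadjusted p under 0.05 were 9, 3 to 10 over the edgeR fits with a library left out and 6 to 11 over those of DESeq2, where 3.53% to 13.4% and 3.59% to 11.6% of all genes were. Members whose groups did not overlap were 6, or 9.52%, against 4.67% of all genes. The count was 7 to 10 with a library left out and 13 without CTR-5 and SS-5. The share of all genes was also higher without CTR-1 and without CTR-5 and SS-5, as given above. It is not given for the other fits, so that these counts are no result about the members. Libraries of the same number were not shown to be paired (correlations from -0.0077 to 0.0603 over 3 pairs). With the replicate block over numbers 2, 3 and 5 edgeR called 9 genes and gave 5 members at an unadjusted p under 0.05 (Adcy1, Rgs14, Rgs6, Rgs7 and Rgs8), or 7.94% against 4.48% of all genes. The same libraries without a block gave 7 genes and the same 5 members, against 5.04% of all genes. Members named by the rule did not pass the threshold in 558 planned and 323 added comparisons, which include DESeq2 fits without an adjusted p. They passed it in 1 planned and 7 added, all with DESeq2. Rgs8, outside the rule and not in these counts, passed it with DESeq2 without CTR-1. The DESeq2 fits with libraries left out, the libraries without a block, the overlap counts with libraries left out or without TMM and the marker lists without CTR-5 and SS-5 were chosen after seeing the data. Without CTR-5 and SS-5 the median log2 fold change moved by more than the pooled SD within groups of the list's median log2 CPM for 2 of 13 marker lists, microglia (-0.17 to -0.33) and choroid plexus with ependyma (-1.46 to -0.04). Fits with fewer libraries hold less information, and otherwise the cause was not tested. Members with few counts, such as Gna14 and Rgs22, have wide intervals at this depth.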
